A study of Gallus gallus with 2 samples.

Results

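Heat shock proteins and chaperonins are the proteins that fold, refold and hand on other proteins, and the 67 gene rows that carry their names were followed here in cultured chicken cells with and without interference with LSD1. Members were taken by gene name. A name had to start with HSP followed by a digit or by A, B, D, E or H, or with DNAJ, or be a numbered CCT, TCP1, HSF1, HSF2 or HSF3, and HSPG2, a matrix proteoglycan, was left out. The 67 rows stood among 26656 listed genes and carried 66 distinct symbols, since HSPE1 is listed under 2 identifiers. HSF3 matched no name and was not analysed here. Of the 67 rows, 36 had at least 20 reads over both libraries, 30 at least 100 and 20 at least 1000, while 31 had under 20 reads and 21 of these were at 0 in each library.

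The families work in relay. HSP70 proteins bind unfolded stretches of a protein in a cycle driven by ATP, J-domain proteins (DNAJA, DNAJB and DNAJC) bring them their substrates and start that cycle, and HSP110 proteins reset it by exchanging the nucleotide. HSP90 proteins act later, on nearly folded clients such as kinases and steroid receptors, the ring-shaped chaperonins (HSP60 with its lid HSP10 in mitochondria, CCT in the cytosol) enclose their substrates, and small HSPs hold unfolded proteins without ATP. HSF1 is the transcription factor that switches on many of these genes after heat or other protein damage. Germ cells of the testis are known to use testis-enriched chaperones as well as those found in every cell.

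Testes were taken from chick embryos after 18.5 days of egg incubation, digested with collagenase and trypsin, and the freed cells, labelled as spermatogenic stem cells (SSCs), were cultured. In the shLSD1 group the SSCs received, by transfection, a vector that interferes with LSD1, a histone demethylase. The Blank group received no treatment, and the labels do not say that it received an empty vector, so transfection itself and the loss of LSD1 cannot be told apart. Each group was 1 library, and no label says that cells were sorted or how many animals were pooled.

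A total of 8245826 reads were counted on genes in the shLSD1 library and 8731455 in the Blank library, and a count of 0 allowed up to 0.364 CPM (reads relative to the library total) in shLSD1 and 0.344 CPM in Blank. LSD1 itself (KDM1A) was at 0 reads in each library, so the interference was not checked by these counts. The SSC label was set against 8 germ cell genes, of which 7 were listed and only DDX4, a germ cell RNA helicase, reached 20 reads, with 11 in shLSD1 and 23 in Blank. The listed germ cell genes summed to 29 reads in shLSD1 and 51 in Blank, with NANOG at 0. Other lists moved between the libraries: 4 Sertoli cell genes summed to 2002 reads in shLSD1 against 1664 in Blank (AMH at 0), 4 Leydig cell genes to 517 in shLSD1 against 696 in Blank, 4 peritubular and fibroblast genes to 4710 in shLSD1 against 6101 in Blank, nearly all from LUM (DCN and COL1A2 at 0), and 3 lymphocyte genes to 70 in shLSD1 against 157 in Blank. Endothelial genes summed to 79 reads in shLSD1 against 107 in Blank, 1 macrophage gene to 186 in shLSD1 against 177 in Blank, and haemoglobin genes to 17 in each. Single genes carried much of some other sums too. CLDN11 had 1544 of the Sertoli reads in shLSD1 and 1255 in Blank. IL7R had 8 in shLSD1 and 57 in Blank, PTPRC 27 and 44, and CD3E 35 and 56. In the Leydig list CYP17A1 had 380 in shLSD1 and 551 in Blank, while CYP11A1 had 107 in shLSD1 and 96 in Blank. No assembled models were matched to these marker genes, and a count of 0 could not be read as absence, as described below for the members. The low germ cell counts therefore do not show how many germ cells the cultures held. Whether cell composition differed, and its part in the values below, was not tested. In bulk RNA fewer cells of a type and less RNA per cell cannot be told apart.

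Most of the well-measured chaperone genes were lower in the shLSD1 library, by less than 1.5-fold, and the small HSPs were the family whose summed reads had an interval above 0. That small HSP sum followed 1 gene, HSPB7, with 871 of 1015 reads in shLSD1 and 652 of 777 in Blank. All members together took 63167 reads in shLSD1, 0.766% of the library, and 77427 reads in Blank, 0.887% of the library. The log2 ratio of shLSD1 to Blank for this sum was -0.21, with a 95% Clopper-Pearson interval of -0.23 to -0.20. Intervals here and below cover counting error only, and with 1 library per group they compare these libraries and not the treatments. They take each read as independent, so any PCR copies among the counted reads would make them too narrow. The ratio was -0.18 (-0.20 to -0.16) without HSPA5, HSPA8 and HSP90B1, the 3 members with most reads, a check that was added after seeing the data. In the text, a member is said to have risen or fallen only where its own interval excluded 0.

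By that rule 19 of 36 members with at least 20 reads fell (52.8%), beside 15.4% of all 12081 genes with as many reads, and 2 of 36 rose, HSPB7 and DNAJC27, beside 12.9% of all genes. Intervals narrow with depth, and the members are abundant genes, so the counts were repeated among genes with at least 1000 reads, a limit chosen after the data were seen. There 15 of 20 members fell (75%), beside 28.4% of 2929 genes, and 1 of 20 rose, HSPB7, beside 23% of genes. A log2 ratio below 0, whatever its interval, was found for 24 of 30 members with at least 100 reads (80%), beside 53.2% of 8277 genes, and for 18 of 20 members with at least 1000 reads (90%), beside 51.9% of genes. The median log2 ratio was -0.13 over the 20 members with at least 1000 reads and -0.0068 over all genes at that depth. These shares describe the members beside all genes and are no test of the list.

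Differences of larger size were rare. No member of 36 was 2-fold lower, beside 1.82% of all genes, and 1 member, HSPB8, was over 2-fold higher, beside 2.2% of all genes, on 15 reads in shLSD1 and 6 in Blank. Among members with at least 100 reads, 0 of 30 were 1.5-fold higher, beside 2.6% of genes, and 0 of 30 were 1.5-fold lower, beside 2.49% of genes. By fold alone the members were therefore near or under the background.

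**Figure D1:**
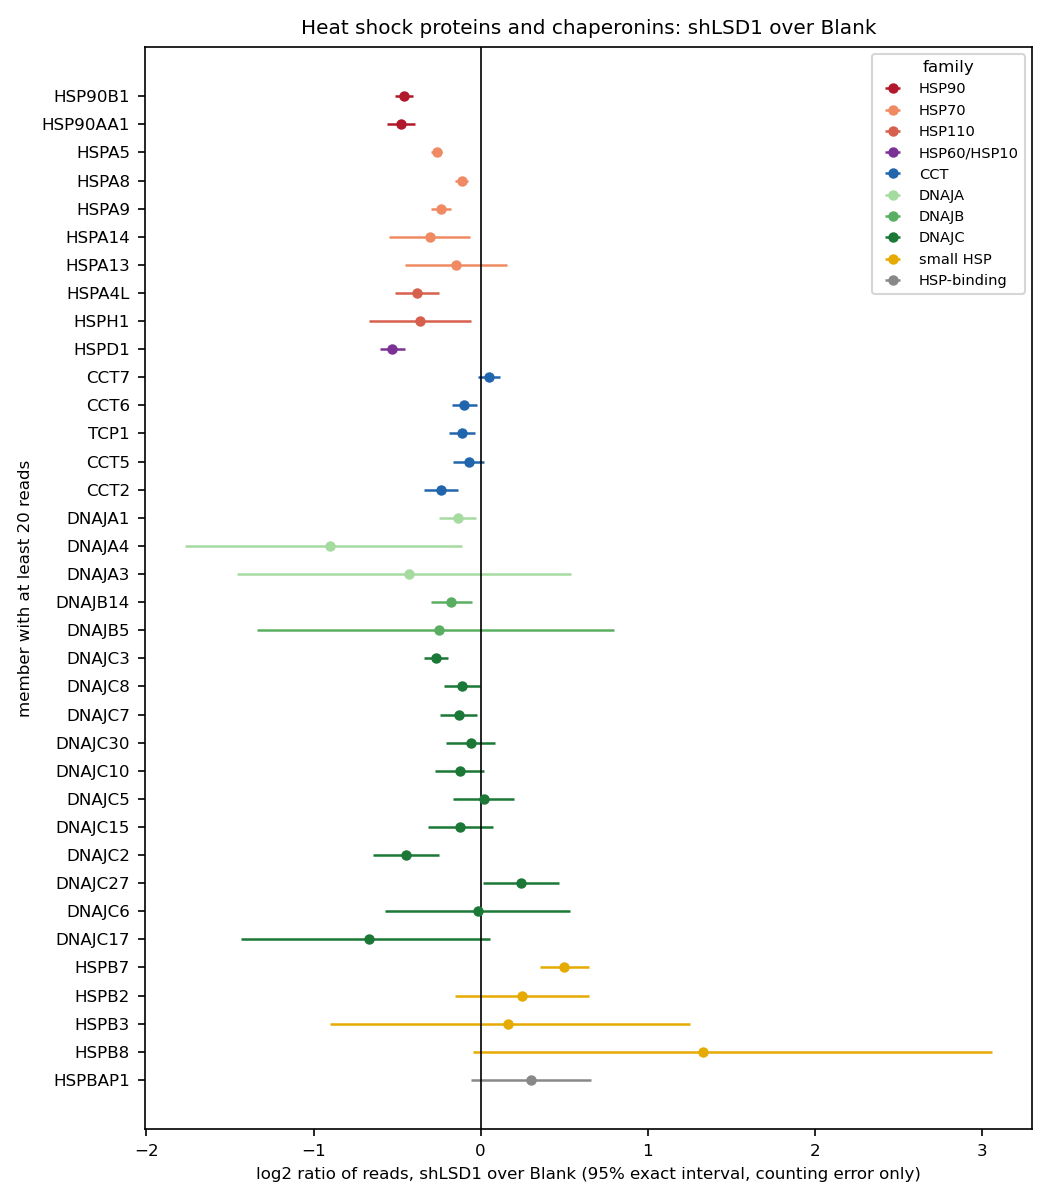
Log2 ratio of reads, shLSD1 over Blank, for the 36 members with at least 20 reads, grouped by family; points are single ratios of 1 library to 1 library and bars are 95% Clopper-Pearson intervals that cover counting error only. The HSP90, HSP110 and HSP60 points lie between -0.36 and -0.53, the CCT points between -0.24 and 0.05, and all 4 small HSP points lie above 0.

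The 2 HSP90 genes with at least 20 reads among the members fell. TRAP1, the HSP90 of mitochondria, is outside the naming rule and was on the list of co-chaperones. It had 1926 reads in shLSD1 and 2144 in Blank, and its log2 ratio of -0.07 had an interval that held 0 (-0.16 to 0.02). HSP90B1 (GRP94), the HSP90 of the endoplasmic reticulum (ER), had 4877 reads in shLSD1 and 7103 in Blank; as FPKM, a level per length of gene and depth of library, it had 215 in shLSD1 and 296 in Blank. Its log2 ratio was -0.46 (-0.51 to -0.41). HSP90AA1, the stress-inducible cytosolic HSP90, had 1905 reads in shLSD1 and 2805 in Blank, or 102 FPKM in shLSD1 and 141 FPKM in Blank, and a log2 ratio of -0.48 (-0.56 to -0.39). HSP90B1 and HSP90AA1 thus stood 27.3% and 28.1% lower in CPM, although one protein works in the ER and the other in the cytosol. HSP90AB1, the constitutive cytosolic HSP90, was listed at 0 in each library. A model assembled by the authors lies over it on the same strand and held 0 reads in shLSD1 and 1 in Blank. The cytosolic HSP90 genes are close in sequence, and how reads that match both were counted is not given in the sources used here, so the split between them is uncertain. HSP90B1 lies on chromosome 1 between 54869423 and 54879269 and HSP90AA1 on chromosome 5 between 49388166 and 49393962, in coordinates as the files give them.

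Of the 5 HSP70 genes with at least 20 reads, 4 fell, by 0.11 to 0.30 on the log2 scale. Beside them, 15.4% of all genes with as many reads fell, and 28.4% of those with at least 1000 reads. HSPA5 (BiP), the HSP70 of the ER, was the member with the highest level per length in both libraries, at 689 FPKM in shLSD1 and 825 FPKM in Blank. It had 13265 reads in shLSD1 and 16852 in Blank, and its log2 ratio was -0.26 (-0.30 to -0.23). HSPA8 (HSC70), the constitutive cytosolic HSP70, was next in both libraries, at 335 FPKM in shLSD1 and 362 FPKM in Blank. Its 11009 reads in shLSD1 and 12619 in Blank gave a log2 ratio of -0.11 (-0.15 to -0.08), the smallest of the HSP70 genes that fell. HSPA9 (mortalin), the mitochondrial HSP70 that pulls imported proteins across the inner membrane, had 4333 reads in shLSD1 and 5407 in Blank and a log2 ratio of -0.24 (-0.29 to -0.18). HSPA14, which in humans pairs with a ribosome-bound J-domain protein, had 253 reads in shLSD1 and 331 in Blank, with a log2 ratio of -0.30 (-0.55 to -0.06). HSPA13, a microsomal relative, had 169 reads in shLSD1 and 198 in Blank, and its interval of -0.45 to 0.16 held 0. The family median was -0.24, beside -0.011 over all genes with at least 20 reads.

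HSP110 proteins exchange the nucleotide on HSP70. HSPA4L, an HSP110 gene known to be strongly expressed in the mouse testis, had 798 reads in shLSD1 and 1101 in Blank, or 30.9 FPKM in shLSD1 and 40.2 FPKM in Blank. Its log2 ratio was -0.38 (-0.52 to -0.25). HSPH1 had 158 reads in shLSD1 and 215 in Blank, or 5.64 FPKM in shLSD1 and 7.24 FPKM in Blank, and a log2 ratio of -0.36 (-0.67 to -0.06). HSPA4L and HSPH1 therefore gave nearly the same ratio at very different levels per length. HSPA4, the third of these genes, had 4 reads in each library.

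HSPD1 (HSP60), the subunit of the mitochondrial chaperonin ring, gave the lowest ratio of all members with at least 100 reads. It had 2353 reads in shLSD1 and 3597 in Blank, which is 144 FPKM in shLSD1 and 208 FPKM in Blank. The log2 ratio was -0.53 (-0.61 to -0.45), or 30.7% lower in CPM. HSPD1 lies on chromosome 7 between 9720880 and 9729711, minus strand. HSPE1 (HSP10), the lid of the same ring, is its head-to-head neighbour in many vertebrates. The HSPE1 row on chromosome 7 had 1 read in shLSD1 and 3 in Blank, and the second HSPE1 row, on an unplaced scaffold, had 0 in shLSD1 and 4 in Blank. A model assembled by the authors covers the HSPE1 row of chromosome 7 on the plus strand and begins 784 bases from HSPD1. It had 21 reads in shLSD1 and 18 in Blank, and its interval of -0.67 to 1.30 was too wide to show whether HSP10 moved with HSP60.

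**Figure D2:**
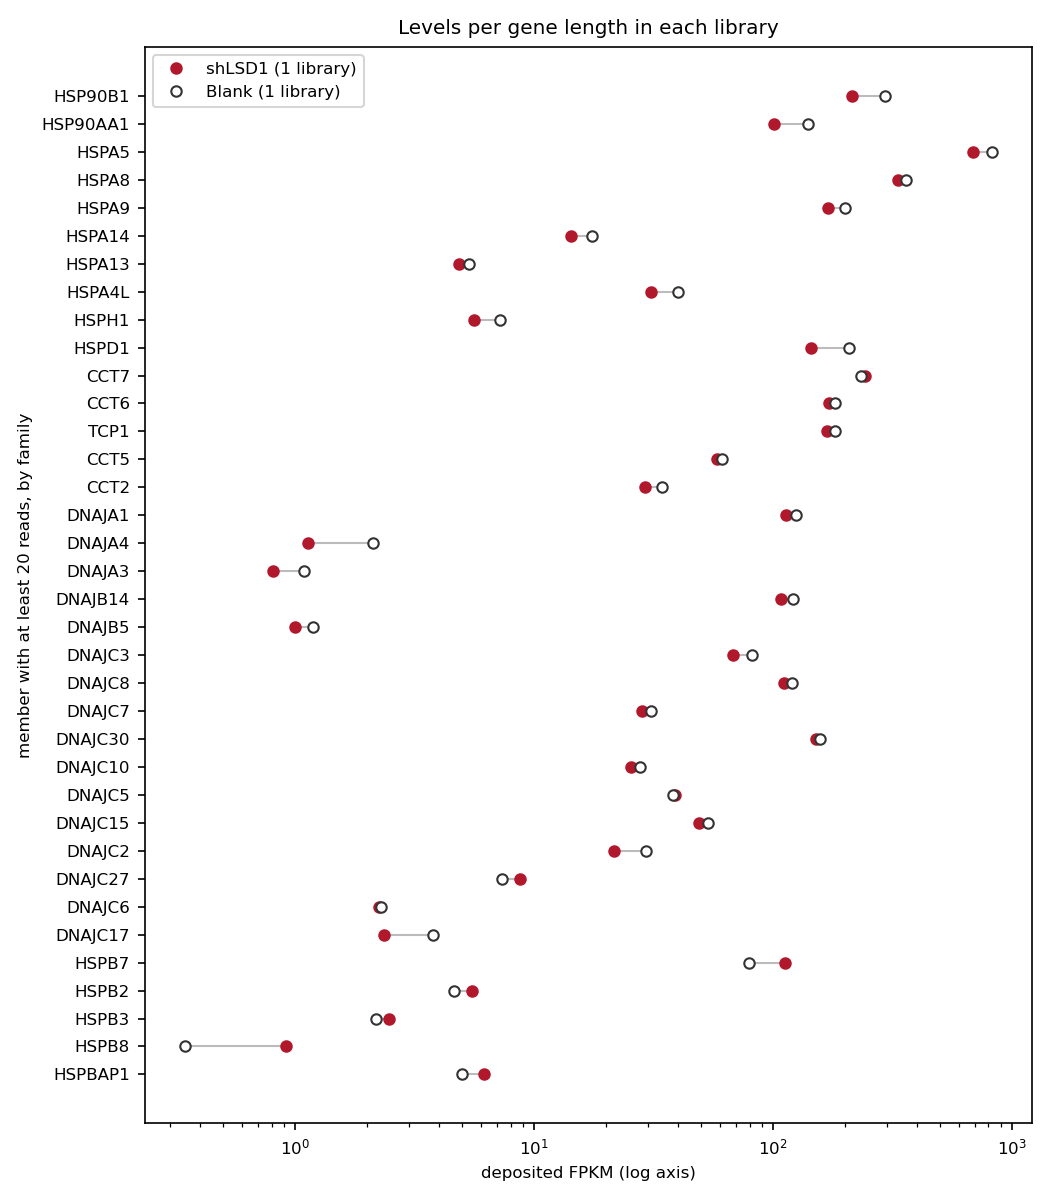
Deposited FPKM (level per length of gene, log axis) of the 36 members with at least 20 reads, with shLSD1 as filled points and Blank as open points, 1 library each. HSPA5 stands highest at 689 FPKM in shLSD1 and 825 FPKM in Blank, and the gap between the points is wider for HSPD1, HSP90AA1 and HSP90B1 than for the CCT genes.

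The cytosolic chaperonin CCT, a ring of different subunits that folds actin and tubulin, moved little. CCT7 had 3442 reads in shLSD1 and 3522 in Blank, or 243 FPKM in shLSD1 and 234 FPKM in Blank, and a log2 ratio of 0.05 (-0.02 to 0.12). CCT6 had 2698 reads in shLSD1 and 3056 in Blank, with a log2 ratio of -0.10 (-0.17 to -0.02). TCP1, the first subunit described, had 2570 reads in shLSD1 and 2943 in Blank, with a log2 ratio of -0.11 (-0.19 to -0.04). The small falls of CCT6 and TCP1 sat beside an interval that held 0 for CCT5, with 1812 reads in shLSD1 and 2017 in Blank and a log2 ratio of -0.07 (-0.16 to 0.02). CCT2 was the lowest, with 1477 reads in shLSD1 and 1843 in Blank and a log2 ratio of -0.24 (-0.34 to -0.14). CCT8 was listed at 0 in each library, and the assembled model over it had 19 reads in shLSD1 and 25 in Blank. The subunits of 1 ring thus did not share 1 ratio: CCT7 was 40.2 per 100 reads of the 4 other measured subunits in shLSD1 and 35.7 per 100 in Blank. The log2 ratio of that proportion was 0.17, with a counting interval of 0.09 to 0.25. Under upper-quartile scaling the interval of CCT6 held 0 and that of CCT7 lay above 0, with no change of sign in either.

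Per length, the CCT subunits were spread over 29.3 to 243 FPKM in shLSD1 and 34.5 to 234 FPKM in Blank, although each ring takes equal numbers of the subunits. The 3 subunits at 169 FPKM or more in shLSD1 (CCT7, CCT6 and TCP1) have listed gene models of 1711, 1900 and 1840 bases. The lower ones have longer models, 3754 bases for CCT5 and 6078 bases for CCT2, and FPKM divides by that length. The part of the models' length in this spread was not tested.

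The family sums differed in size, and their proportions within a library need no scaling of the totals. HSP90 summed to 6782 reads in shLSD1 and 9908 in Blank (log2 ratio -0.46, -0.51 to -0.42), HSP110 to 960 in shLSD1 and 1320 in Blank (-0.38, -0.50 to -0.26), HSP70 to 29029 in shLSD1 and 35407 in Blank (-0.20, -0.23 to -0.18), and CCT to 11999 in shLSD1 and 13381 in Blank (-0.075, -0.11 to -0.039). A sum weights the abundant genes most, and CCT7, the most counted CCT gene, had a ratio of the opposite sign to its family's sum. For every 100 CCT reads there were 56.5 HSP90 reads in shLSD1 and 74.0 in Blank, a log2 difference of -0.39 (-0.45 to -0.33). Reads of HSPD1 and HSPE1 stood at 19.6 per 100 CCT reads in shLSD1 and 26.9 in Blank, a log2 difference of -0.46 (-0.54 to -0.37). The HSP70 proportion moved less, at 242 per 100 CCT reads in shLSD1 and 265 in Blank, a log2 difference of -0.13 (-0.17 to -0.087). Within compartments, HSP90B1 was 36.8 per 100 HSPA5 reads in shLSD1 and 42.1 in Blank (-0.20, -0.26 to -0.14), HSPD1 was 54.3 per 100 HSPA9 reads in shLSD1 and 66.5 in Blank (-0.29, -0.39 to -0.20), and HSP90AA1 was 17.3 per 100 HSPA8 reads in shLSD1 and 22.2 in Blank (-0.36, -0.45 to -0.27). In each of these 3 pairs the HSP90 or HSP60 gene was thus lower relative to the HSP70 gene beside it. The mitochondrial pair holds HSP60 and not TRAP1, the mitochondrial HSP90. TRAP1 had a log2 ratio of -0.07 (-0.16 to 0.02), against -0.24 for HSPA9, so the pattern does not extend to it. A proportion of TRAP1 to HSPA9 was not computed. In all, 11 such proportions were computed, chosen after the values were seen.

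By place in the cell, the falls were not confined to 1 compartment. Of 8 listed chaperones placed in the ER (a set that does not hold DNAJB14, of the ER membrane), 5 had at least 20 reads, all 5 had ratios below 0 and 3 fell (HSPA5, HSP90B1 and DNAJC3). Their sum was 21873 reads in shLSD1 and 28603 in Blank, a log2 ratio of -0.30 (-0.33 to -0.28), and -0.37 (-0.41 to -0.33) without HSPA5. Of 9 listed mitochondrial rows, 5 had at least 20 reads, all 5 had ratios below 0 and 2 fell (HSPD1 and HSPA9), with a sum of 7850 reads in shLSD1 and 10320 in Blank and a log2 ratio of -0.31 (-0.35 to -0.27). The cytosolic HSP90, HSP70 and HSP110 genes summed to 14127 reads in shLSD1 and 17075 in Blank, with a log2 ratio of -0.19 (-0.22 to -0.16), and 5 of 5 fell. Beside these counts, 15.4% of all genes with at least 20 reads fell, and 28.4% of those with at least 1000 reads. Ratios below 0 were found for 53.2% of all genes with at least 100 reads. Differences between the compartments were not tested.

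The J-domain proteins are the largest group, with 37 rows, of which 16 had at least 20 reads and 16 were at 0. As a whole they summed to 10880 reads in shLSD1 and 12905 in Blank, a log2 ratio of -0.16 (-0.20 to -0.13). Of the 16, 7 fell and 1 rose, beside 15.4% and 12.9% of all genes with as many reads. Among all genes with at least 1000 reads, 28.4% fell and 23% rose. DNAJC3 (P58IPK), a partner of HSPA5 in the ER, led them in reads with 2856 in shLSD1 and 3637 in Blank, or 68.3 FPKM in shLSD1 and 82.0 FPKM in Blank. Its log2 ratio of -0.27 (-0.34 to -0.20) was close to that of HSPA5 itself. DNAJC10 (ERdj5), an ER disulfide reductase, had 704 reads in shLSD1 and 813 in Blank, and its interval of -0.27 to 0.02 held 0. DNAJA1, a cytosolic partner of HSPA8, had 1217 reads in shLSD1 and 1417 in Blank and a log2 ratio of -0.14 (-0.25 to -0.03). DNAJB14, a J-domain protein of the ER membrane, had 1022 reads in shLSD1 and 1222 in Blank and a log2 ratio of -0.18 (-0.30 to -0.05).

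Other J-domain proteins showed a spread from a clear fall to a narrow rise. DNAJC2, the ribosome-bound partner of HSPA14 in humans, had 356 reads in shLSD1 and 514 in Blank, or 21.6 FPKM in shLSD1 and 29.4 FPKM in Blank, with a log2 ratio of -0.45 (-0.65 to -0.25). Both genes of that pair fell. DNAJC8, a nuclear protein found with splicing factors, had 1320 reads in shLSD1 and 1510 in Blank (log2 ratio -0.11, -0.22 to -0.0039). DNAJC7, an adaptor that binds both HSP70 and HSP90, had 1287 reads in shLSD1 and 1494 in Blank (log2 ratio -0.13, -0.24 to -0.02). The intervals of these falls end close to 0, and that of DNAJC8 held 0 under 3 of 4 other scalings. DNAJA4 had 20 reads in shLSD1 and 40 in Blank, and its fall of -0.90 (-1.77 to -0.11) rests on few reads. DNAJC27, a small GTPase with a J domain, rose, with 341 reads in shLSD1 and 306 in Blank and a log2 ratio of 0.24 (0.01 to 0.47), and its interval held 0 under DESeq2 size factors. The mitochondrial DNAJC30 (733 reads in shLSD1, 809 in Blank) and DNAJC15 (414 in shLSD1, 477 in Blank) and the synaptic vesicle chaperone DNAJC5 (486 in shLSD1, 508 in Blank) had intervals that held 0. So did those of DNAJC6, DNAJC17, DNAJA3 and DNAJB5, all with at most 59 reads in each library.

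The small HSPs had ratios above 0. HSPB7, a small HSP known from heart and skeletal muscle, had 871 reads in shLSD1 and 652 in Blank, or 112 FPKM in shLSD1 and 79.3 FPKM in Blank. Its log2 ratio was 0.50 (0.35 to 0.65), a level 1.41-fold higher in shLSD1. Among the 2929 genes with at least 1000 reads, 98.6% had a lower ratio than HSPB7. HSPB2, a muscle small HSP, had 112 reads in shLSD1 and 100 in Blank, with a log2 ratio of 0.24 (-0.16 to 0.65). HSPB8, which works with the co-chaperone BAG3 in clearing proteins by autophagy, had 15 reads in shLSD1 and 6 in Blank, with a log2 ratio of 1.33 (-0.04 to 3.06). HSPB3, also a muscle small HSP, had 17 reads in shLSD1 and 16 in Blank. All 4 ratios were thus above 0, but only the interval of HSPB7 excluded it, and HSPB7 held most of the family's 1015 reads in shLSD1 and 777 in Blank. The sum of the family gave a log2 ratio of 0.47 (0.33 to 0.61). HSPB1 (HSP27 in humans) had 0 reads in shLSD1 and 3 in Blank on its own row, and 139 in shLSD1 and 129 in Blank on the assembled model over it (-0.17 to 0.55). BAG3, the partner of HSPB8, is not a member and went the other way. It had 3 reads in shLSD1 and 15 in Blank, with an interval of -4.67 to -0.42 on under 20 reads.

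CRYAB (alpha B crystallin), the small HSP that sits next to HSPB2 in vertebrate genomes, is not among the members by name but was on the list of co-chaperones. It is listed on chromosome 24 on the plus strand, 1227 bases from HSPB2 on the minus strand. It had 78 reads in shLSD1 and 42 in Blank, a log2 ratio of 0.97 (0.42 to 1.55). CRYAB therefore rose while the ratio of HSPB2 was not distinguishable from 0 at this depth. HSPBAP1, a protein named for binding HSPB1 and caught by the naming rule, had 142 reads in shLSD1 and 122 in Blank, with a log2 ratio of 0.30 (-0.06 to 0.66). HSPBP1, which binds HSP70 and releases its nucleotide, was at 0 in each library.

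**Figure D3:**
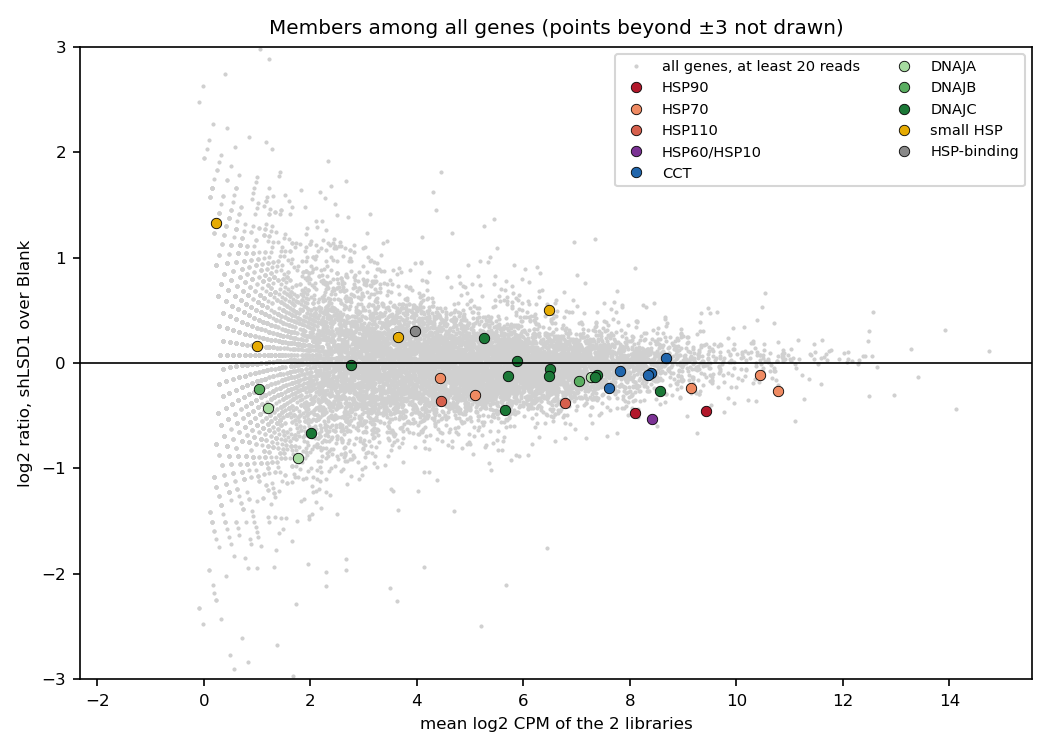
Log2 ratio, shLSD1 over Blank, against the mean log2 CPM of both libraries, for all genes with at least 20 reads (grey) and for the members (coloured by family); ratios beyond 3 in size are not drawn. HSPD1, HSP90AA1 and HSP90B1 lie at the lower edge of the genes of similar abundance and HSPB7 lies at the upper edge.

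Set among the 2929 genes with at least 1000 reads, 4 members lay near the lower end. Only 23 genes (0.785%) had a lower ratio than HSPD1, 41 (1.40%) than HSP90AA1, 48 (1.64%) than HSP90B1 and 94 (3.21%) than HSPA4L. By contrast 285 genes had a lower ratio than DNAJC3, 299 than HSPA5, 351 than HSPA9 and 353 than CCT2. The 5% and 95% quantiles of these genes were -0.34 and 0.29 on the log2 scale. HSPD1, HSP90AA1, HSP90B1 and HSPA4L were below that range and HSPB7 above it. The HSP70 and CCT genes of this depth were inside it, and so was the mitochondrial HSP90, TRAP1, at -0.07. The order by level per length also moved for HSPD1, which was at rank 9 of the members in shLSD1 and rank 5 in Blank. HSP90AA1 was at rank 14 in shLSD1 and 10 in Blank, and HSPB7 at rank 11 in shLSD1 and 15 in Blank. HSPA5 and HSPA8 kept the top 2 ranks.

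The named transcription factors of the heat shock response were barely counted. HSF1, the main activator of heat shock genes, was at 0 in each library, and so was the model over it. HSF2, a relative with roles in the mammalian germ line, had 6 reads in shLSD1 and 3 in Blank, with an interval of -1.14 to 3.71. Neither a difference nor a like level could be read from these counts of HSF1 and HSF2. HSF4, on the list of co-chaperones, had 13 reads in shLSD1 and 2 in Blank. Its interval of 0.64 to 5.97 lay above 0, but it had under 20 reads. An assembled model with an HSF-type DNA-binding domain on chromosome 4, which carries no gene name, had 410 reads in each library.

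A count of 0 could not be read as absence of expression in these files. The 21 members at 0 in each library were HSP90AB1, HSPA12A, CCT8, DNAJA2, DNAJB4, DNAJB6, DNAJB8, DNAJB9, DNAJB11, DNAJB13, DNAJC9, DNAJC11, DNAJC13, DNAJC16, DNAJC18, DNAJC19, DNAJC21, DNAJC24, DNAJC28, HSPBP1 and HSF1, and several, such as CCT8, encode proteins that every cell uses. For 20 of the 21 (not DNAJB8) the authors' table holds an assembled model on the same strand, and for 15 that model had reads. Among all 31 members under 20 reads, 28 had such a model, against 5 of the 36 members with at least 20 reads. For these genes the reads of the model were therefore looked at beside those of the row. How reads that fit both a gene and a model were assigned is not given in the sources used here.

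**Figure D4:**
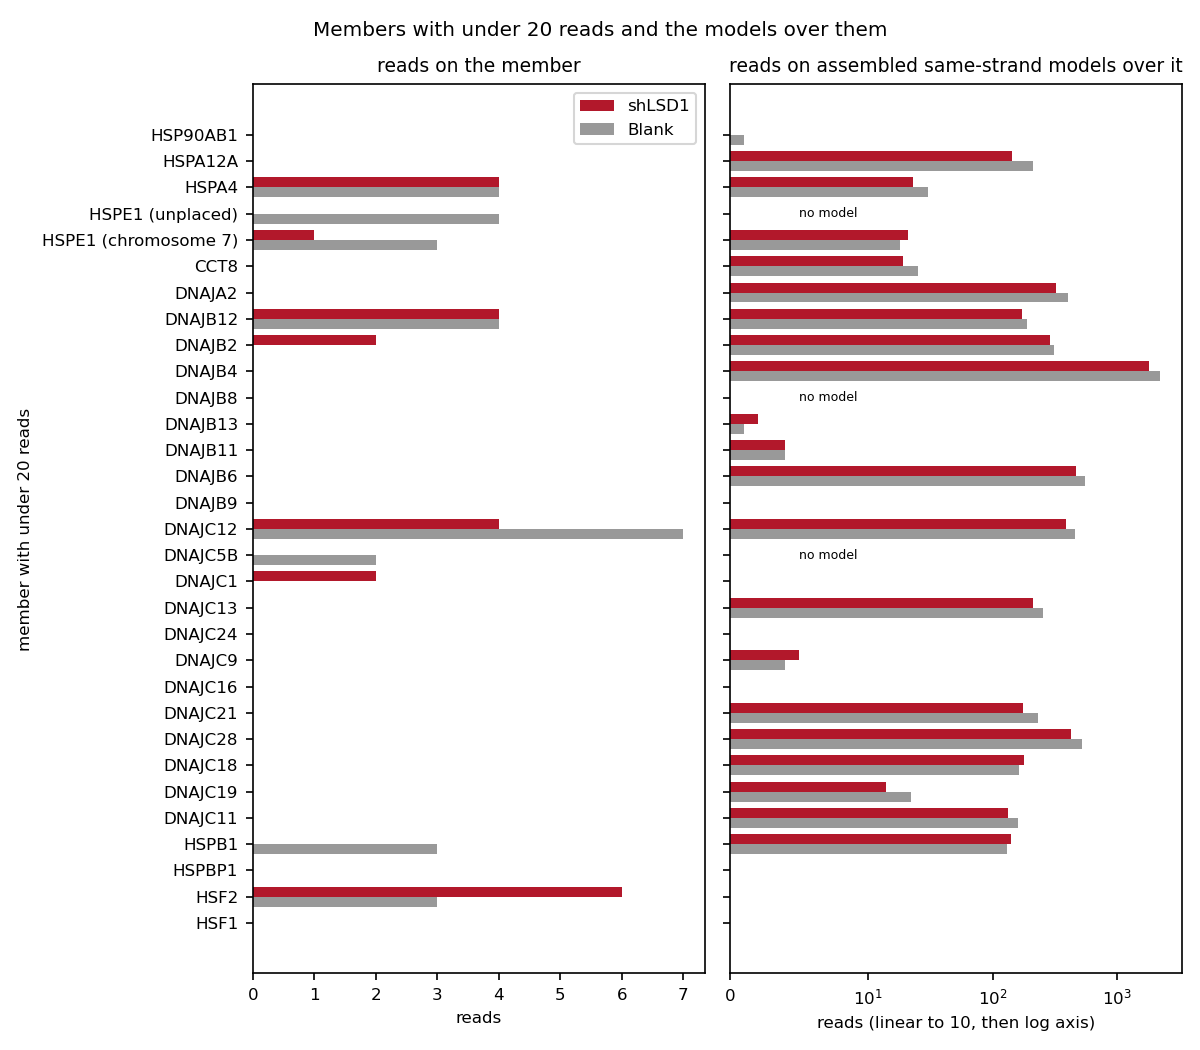
Reads on the 31 members with under 20 reads (left, linear axis) and on the assembled models that cover them on the same strand (right, linear up to 10 reads and then a log axis), with shLSD1 above Blank for each gene. Members at 0, such as DNAJA2 and DNAJB6, have models with 320 and 470 reads in shLSD1, and HSF1 and DNAJB9 have none on either.

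Most of the assembled models over members were also lower in the shLSD1 library. On the same strand 18 had at least 20 reads, 17 of them over members under 20 reads and 1 over DNAJB5. Of the 18, 5 fell and 1 rose, beside 15.4% and 12.9% of all genes with as many reads. Ratios below 0 were found for 14 and above 0 for 4, beside 53.2% below 0 among all genes with at least 100 reads. The median was -0.19, beside -0.011 over all genes with at least 20 reads. Their sum was 5062 reads in shLSD1 and 6004 in Blank, a log2 ratio of -0.16 (-0.22 to -0.11). The model over DNAJB4 held 1799 of these reads in shLSD1 and 2228 in Blank. That over DNAJC28 held 425 in shLSD1 and 524 in Blank. Both models are much longer than the gene under them, so the sum need not be that of chaperone genes alone. The model over DNAJA2, a cytosolic partner of HSPA8, had 320 reads in shLSD1 and 400 in Blank (log2 ratio -0.24, -0.46 to -0.02). The model over DNAJC21, a ribosome biogenesis factor, had 176 reads in shLSD1 and 233 in Blank (-0.32, -0.61 to -0.03), and that over HSPA12A, an HSP70 relative, 144 in shLSD1 and 210 in Blank (-0.46, -0.78 to -0.15). The model over DNAJB6, a suppressor of protein aggregation, had 470 reads in shLSD1 and 554 in Blank, and its interval of -0.34 to 0.03 held 0. The model that rose lies over DNAJB5 and had 148 reads in shLSD1 and 94 in Blank (0.73, 0.35 to 1.13), while the row of DNAJB5 itself had 15 in shLSD1 and 19 in Blank. The models over DNAJB4 and DNAJC28 also fell. That over DNAJB4 has a listed length of 27433 bases against 1287 for the gene, and that over DNAJC28 has 5708 bases against 1149. The reads of these models need not come from DNAJB4 or DNAJC28. Models on the opposite strand overlap DNAJA3, DNAJB2, DNAJC9 and DNAJC11, by 6.69% of the span of DNAJA3 and by less of the others. Whether the counting used strand is not given, so reads within these short overlaps cannot be told apart.

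Of 44 co-chaperones and folding helpers on a list, 38 were matched and 21 had at least 20 reads. Of the 21, 4 fell and 3 rose, beside 15.4% and 12.9% of all genes with as many reads. All 21 had at least 100 reads, and among all genes with at least 1000 reads 28.4% fell and 23% rose. By these shares the list was near or under the background. Another 9 were at 0, and no assembled models were matched to them. Their median log2 ratio was -0.053, beside -0.011 over all genes. The partners of HSP90 that fell were AHSA2, an activator of its ATPase (248 reads in shLSD1, 373 in Blank, log2 ratio -0.51), PPID, a cyclophilin (413 in shLSD1, 604 in Blank, -0.47), and FKBP4, an immunophilin of steroid receptor complexes (1859 in shLSD1, 2458 in Blank, -0.32). Other HSP90 partners on the list had intervals that held 0: AHSA1 (log2 ratio -0.12), CHORDC1 (-0.17), SUGT1 (-0.03), STUB1 (0.07) and TTC4 (0.07). ST13, which links HSP70 to HSP90, fell by 0.15 on the log2 scale. STIP1, the scaffold between HSP70 and HSP90, had 1712 reads in shLSD1 and 1837 in Blank, and its interval of -0.11 to 0.08 held 0. CRYAB, the prefoldin subunit PFDN1 (log2 ratio 0.25) and GRPEL2, a mitochondrial nucleotide exchange factor (0.21), rose.

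The other genes of ER folding did not share 1 direction. Of 24 on the list, 23 were matched, 10 were at 0 and 9 had at least 20 reads, with a median of -0.076. Of the 9, 5 fell and 2 rose, beside 15.4% and 12.9% of all genes with as many reads. Among all genes with at least 1000 reads, where intervals are narrower, 28.4% fell and 23% rose. CRELD2, an ER stress gene, had 318 reads in shLSD1 and 482 in Blank (log2 ratio -0.52), and SEL1L, a part of the ER degradation machinery, had 1017 in shLSD1 and 1418 in Blank (-0.40). DERL1 (-0.29), SDF2L1 (-0.16) and the disulfide isomerase PDIA3 (-0.08) fell as well. ATF4, a transcription factor of the stress response, rose, with 12850 reads in shLSD1 and 12009 in Blank (0.18), as did the disulfide isomerase P4HB (0.11). The list as a whole summed to 41251 reads in shLSD1 and 42918 in Blank, a log2 ratio of 0.03, set against -0.30 for the ER chaperones among the members. That sum follows its most counted genes. The transcription factor ATF4 held 12850 of its reads in shLSD1, P4HB 11547 and PDIA3 11461. Of the 9 genes with at least 20 reads, 6 had ratios below 0 and 3 above, so the sum and the median differ in sign. The genes at 0 include CALR, CANX, PDIA4 and PDIA6. No assembled models were matched to this list, so those counts of 0 could not be read as absence. The sum and the median hold nothing from these genes.

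Several chaperone genes carry small nucleolar RNAs in their introns. Inside 5 members the table lists 9 snoRNA genes on the same strand, in HSPA8, HSPA9, CCT6, TCP1 and DNAJA1. They summed to 80 reads in shLSD1 and 118 in Blank, a log2 ratio of -0.48 (-0.91 to -0.06). Of the 9, 7 had ratios below 0 and 2 above, and each single interval held 0. The most counted were a SNORD14 copy in HSPA8 (33 reads in shLSD1, 47 in Blank) and SNORA66 in DNAJA1 (17 in shLSD1, 26 in Blank). Neither the count of signs nor the sum was set beside those of all snoRNAs. Several signs rest on few reads, such as that of SNORD63 in HSPA9, with 4 in shLSD1 and 5 in Blank. Reads of a snoRNA and of the host intron around it cannot be told apart.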

How the data were processed

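RNA-seq was analysed for 2 libraries (shLSD1 and Blank, 1 each), prepared with the TruSeq RNA kit from 1 µg of total RNA. Deposited values were whole-number counts of reads on each gene, not normalized, and the authors' FPKM values (counts divided by gene length and library total) for 26656 genes, of which 9548 are models they assembled. The authors' table also gives each gene's position. The submitters' notes name Bowtie 0.12.2 and mouse builds, while the gene identifiers are those of chicken. The chicken build, the counting tool and the use of strand are not given in the sources used here. Over the count and FPKM tables, 4 columns of per-sample values, headed Control and MLL2_sh, matched no sample and were not used. A deposited comparison table (adjusted counts, log2 fold change, p-value and adjusted p-value) was not used.

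CPM was taken over the listed totals, 8245826 reads in shLSD1 and 8731455 in Blank, and log2 ratios with a prior count of 0.5. Clopper-Pearson 95% intervals of the ratio given both totals stand in for edgeR's quasi-likelihood test, which needs replicates. No p-value is given. For members a log2 ratio was left out where a library had 0 reads or both had 3 or fewer, except in the check with no filter on reads. For the other gene lists it was left out under 20 reads. Levels between genes were compared only in FPKM. Proportions between groups have normal intervals from counting error. Models were assigned to a member by overlap on the same strand. The calculations were tested on simulated counts with counting error only, which checks the code and not the spread between cultures.

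The members and lists were chosen with earlier results of these data known. From the co-chaperone list 1 gene is not reported here and was left out of its counts. Named genes are all HSF, HSP90, CCT and TCP1 rows, the 3 most counted members of each other family, the 5 highest and 5 lowest ratios with at least 100 reads, members past 2-fold (20 reads) or 1.5-fold (100 reads), and all members at 0; others named with values were chosen after those were seen. Alternatives were edgeR TMM, DESeq2 size factors, upper-quartile scaling, a prior count of 5, totals that leave out the 20 most abundant genes, FPKM with a pseudocount of 0.1 or 1, other read filters, and models added to genes. Python 3.11.15 was used with scipy 1.17.1, pandas 2.3.3, numpy 2.4.6 and matplotlib 3.10.9, and R 4.3.3 with DESeq2 1.42.0 and edgeR 4.0.16.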

Additional observations from a re-analysis of the deposited data

How the results depend on the processing

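No paired analysis was possible because the series holds 1 library of each group. The scalings moved all log2 ratios by -0.012 (DESeq2 size factors) to 0.026 (upper-quartile scaling). The summed reads of all members and of the families other than HSF, which was not run, kept their direction and call under every scaling and with models added. Of 36 members, 30 kept their call under every scaling and with models that overlap by at least 90% added. With another prior count or with FPKM the intervals of the main counts were kept, so those settings could not change a call. Ratios of DNAJC6 (0.0074 under upper-quartile scaling) and DNAJA3 (0.02 with models that overlap by at least 90% added) changed sign, with intervals that held 0 throughout. The intervals of DNAJC8 (TMM, totals without the 20 most abundant genes, and upper-quartile scaling), DNAJC27 (DESeq2), and CCT6, DNAJA1 and DNAJC7 (upper-quartile) came to hold 0, and that of CCT7 came to lie above 0 (upper-quartile, 0.08). The number of members with an interval above 0 was 1 with DESeq2 size factors and 1 with at least 1000 reads, a limit added after the data were seen. The number at least 2-fold higher was 0 with a prior count of 5, 0 with an FPKM pseudocount of 1 and 0 with at least 200 reads. With no filter on reads, 3 members were 2-fold higher, 4 were 2-fold lower, 4 were 1.5-fold higher and 7 were 1.5-fold lower, and the median of HSP60 and HSP10 was -1.16, since rows with few reads then entered. With models that overlap by at least 50% added to the genes, 9 members were at 0 in place of 21. With 1 library per group, the spread between cultures is unknown and no interval here covers it.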

Other observations

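Chaperone domains were also found in the descriptions of assembled models that lie over no member. Of 40 assembled models with a chaperone domain, 26 lay over a member and 14 elsewhere, and 7 of the 14 had at least 20 reads. These 7 carry no gene name in the files and are given by domain only. A model with an Hsp70 domain on chromosome 5 had 1782 reads in shLSD1 and 1948 in Blank (log2 ratio -0.05, -0.14 to 0.05). A model with an Hsp90 domain on an unplaced scaffold had 270 reads in shLSD1 and 373 in Blank, and its log2 ratio of -0.38 (-0.61 to -0.15) was the only one of the 7 whose interval excluded 0. A model with an HSF-type DNA-binding domain on chromosome 4 had 410 reads in each library, and a model with an Hsp20 domain on chromosome 27 had 367 in shLSD1 and 405 in Blank. The 7 models summed to 3389 reads in shLSD1 and 3726 in Blank, a log2 ratio of -0.05 (-0.12 to 0.01). A row named tcp-1, described as subunit 4 of the CCT ring and outside the naming rule, had 0 reads in shLSD1 and 1 in Blank.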
